A study of Mus musculus with 4 samples.

Results

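The genes described here encode the proteins that build the mitochondrial respiratory chain complexes and ATP synthase, and the enzymes and carriers of coenzyme Q. They were chosen by symbol alone, as the Ndufaf, Sdhaf, Uqcc, Coa, Atpaf and Coq genes, Cox10, Cox11 and Cox14 to Cox20, and Surf1, Sco1, Sco2, Bcs1l, Lyrm7, Tmem70, Pdss1, Pdss2, Acad9 and Ecsit. The rule used no measured value, and it found 49 of the 19030 genes listed. RNA was sequenced from ingWAT, the inguinal white fat depot under the skin, of C57BL/6 mice aged 3 months and kept at 4°C, and the study's methods describe cold challenge in male mice with a milder step before it. Control mice (Ctrl) carried Oct3 alleles flanked by loxP sites (Oct3 fl/fl). Adipose-specific Oct3 knockout mice (cKO, labelled as deficient) carried the same alleles and a Cre transgene driven by the Adiponectin promoter, which is active in adipocytes, so that other cells of the depot kept intact Oct3. Oct3, encoded by Slc22a3, is a transporter that takes up norepinephrine. There were 2 libraries of each genotype, and the number of mice behind each library is not given in the sources used here. The p-values below therefore measure the spread between these libraries, which may be technical. The comparison asks whether the machinery that assembles the respiratory chain differed between the genotypes after cold exposure.

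Assembly factors are proteins that hold, modify or deliver parts of a respiratory complex while it is put together and that are absent from the finished enzyme. They add copper, heme, flavin and iron-sulfur centres, keep newly made subunits stable and join intermediates into the final complex. Coenzyme Q is the lipid that carries electrons from complexes I and II to complex III, and its synthesis joins a long isoprenoid tail to a ring that is then modified in the inner mitochondrial membrane. Brown and beige adipocytes are rich in mitochondria and burn fuel through the respiratory chain to make heat.

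Expression is given as FPKM, the fragments of a gene divided by transcript length and library size, which allows levels to be set side by side between genes. Each log2 fold change is a difference of log2(FPKM + 1), cKO minus Ctrl, followed by its standard error (SE), and for low genes it is smaller than the change of FPKM itself. A gene was called when its adjusted p from limma, with the Benjamini-Hochberg adjustment over 12658 genes, was under 0.05. Slc22a3 itself measured 16.95 and 17.68 FPKM in Ctrl and 9.07 and 9.5 FPKM in cKO, a log2 fold change of -0.83 (SE 0.066, limma adjusted p = 0.000439). The depth was estimated at 17315000 to 18370000 reads per library. At that depth the 49 genes stood for about 110 to 6020 reads each per library, with a median of 640, so that counting alone gives an error of 9.5% for the lowest and a median of 4.0%.

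The genes lie on 17 chromosomes. A RefSeq promoter (GRCm38.p6, from 250 bases before to 50 bases after the start of transcription) was found for 42 of them, 10 of the 13 called genes and 32 of the 36 others. Promoters of 6 genes are printed to show what they share and where they differ: Coq6 (chr12:84361718-84362017, plus strand), which had the largest fold change on the log2(FPKM + 1) scale, Coq9 (chr8:94838163-94838462, plus strand), Cox10 (chr11:64079423-64079722, minus strand), Ndufaf4 (chr4:24897833-24898132, plus strand), Coa5 (chr1:37430054-37430353, minus strand), which rose without any of the motifs, and Sdhaf2 (chr19:10525160-10525459, minus strand), which was not called. They are written from 5′ to 3′ on the strand of the gene, and the capitals mark matches on either strand to the motif letters given after them.
Coq6: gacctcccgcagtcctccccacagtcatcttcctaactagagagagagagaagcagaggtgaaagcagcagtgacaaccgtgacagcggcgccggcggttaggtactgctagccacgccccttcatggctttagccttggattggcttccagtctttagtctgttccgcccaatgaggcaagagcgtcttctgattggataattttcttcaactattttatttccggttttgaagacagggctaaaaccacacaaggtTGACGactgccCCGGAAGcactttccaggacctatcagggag
Coq9: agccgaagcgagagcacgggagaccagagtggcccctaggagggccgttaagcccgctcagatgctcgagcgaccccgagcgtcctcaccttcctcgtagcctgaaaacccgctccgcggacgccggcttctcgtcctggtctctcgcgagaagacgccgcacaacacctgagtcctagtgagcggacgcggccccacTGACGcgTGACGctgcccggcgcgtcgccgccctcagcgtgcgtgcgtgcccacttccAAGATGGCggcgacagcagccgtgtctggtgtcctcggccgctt
Cox10: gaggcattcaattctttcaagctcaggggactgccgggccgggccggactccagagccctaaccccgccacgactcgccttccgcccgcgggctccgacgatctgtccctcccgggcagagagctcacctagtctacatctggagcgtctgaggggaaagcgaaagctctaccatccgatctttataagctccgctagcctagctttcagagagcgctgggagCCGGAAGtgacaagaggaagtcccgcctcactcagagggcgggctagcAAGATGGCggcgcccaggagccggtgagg
Ndufaf4: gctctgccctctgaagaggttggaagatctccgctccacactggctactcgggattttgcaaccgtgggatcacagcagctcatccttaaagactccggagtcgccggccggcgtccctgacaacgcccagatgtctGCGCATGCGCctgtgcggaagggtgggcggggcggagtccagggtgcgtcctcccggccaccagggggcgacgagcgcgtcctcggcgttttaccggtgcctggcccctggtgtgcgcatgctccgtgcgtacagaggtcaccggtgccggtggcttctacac
Coa5: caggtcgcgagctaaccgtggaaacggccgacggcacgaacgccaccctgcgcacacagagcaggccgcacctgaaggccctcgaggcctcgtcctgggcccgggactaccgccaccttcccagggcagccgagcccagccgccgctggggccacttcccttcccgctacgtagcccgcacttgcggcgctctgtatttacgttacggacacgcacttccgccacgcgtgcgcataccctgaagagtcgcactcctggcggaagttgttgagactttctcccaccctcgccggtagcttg
Sdhaf2: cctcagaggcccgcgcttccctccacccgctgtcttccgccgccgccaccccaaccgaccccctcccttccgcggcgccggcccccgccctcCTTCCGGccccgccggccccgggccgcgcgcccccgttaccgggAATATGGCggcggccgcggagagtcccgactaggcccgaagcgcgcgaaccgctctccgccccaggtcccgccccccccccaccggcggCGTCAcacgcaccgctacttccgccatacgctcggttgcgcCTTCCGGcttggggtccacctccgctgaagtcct

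The letters searched were those of factors known to act on nuclear genes for mitochondrial proteins. Promoters on a single chromosome, which holds none of the genes described here, were left out of all shares below. No other chromosome was left out. CCGGAAG, the site of the ETS factor GABP, was in the promoters of 17 of the 42 genes (40.5%), against 19.9% of the 10003 tested genes with a promoter and 9.9% of all 27025. In Coq6 it begins 20 bases into the transcript and in Cox10 27 bases before the start. AANATGGC, the site of YY1, was in 10 of the 42 (23.8%), against 9.7% of tested genes and 7.0% of all. The palindromic site of NRF1, written GCGCA, any base and GCGC, was in 6 of the 42 (14.3%), against 11.4% and 5.2%. Ndufaf4 carries it 113 bases before the start. AAGGTCA, the extended site of the ERR receptors, was in 3 of the 42 (7.1%), against 4.1% and 5.4%. TGACGTCA, the full cyclic AMP response element (CRE), was in 1 of the 42 (2.4%, Coa7), against 3.5% and 2.0%. Its core TGACG, which also matches inside the full element, was in 23 of the 42 (54.8%), against 34.8% and 23.0%. Coq9 has this core at 52 and 45 bases before the start.

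The promoters of called and uncalled genes held the letters at these rates: CCGGAAG in 3 of the 10 called (30.0%) and 14 of the 32 uncalled (43.8%), AANATGGC in 3 (30.0%) and 7 (21.9%), the NRF1 site in 1 (10%) and 5 (15.6%), AAGGTCA in 1 (10%) and 2 (6.2%), and TGACG in 7 (70%) and 16 (50.0%). The promoter of Sdhaf2, a gene without a call, holds 4 matches, and that of Coa5, a gene that rose, holds none. These differences between called and uncalled genes were not tested. The median GC content was 63.3% in the promoters of called and 60% in those of uncalled genes, against 60.7% for tested genes.

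Marker genes of cell types differed between the genotypes. All 9 brown and beige adipocyte markers rose, and their summed FPKM was 836 and 1056 in Ctrl and 3164 and 2690 in cKO. The summed FPKM of the 49 genes was also higher in both cKO libraries than in both Ctrl libraries. The same held for the sums of the B and T cell markers given below. With 2 libraries a group, the order of libraries cannot tell these lists apart, and it was not tested. All 13 tested skeletal muscle markers fell, with sums of 2545 and 1710 in Ctrl against 12.2 and 9.56 in cKO, and Ctrl replicate 1 was the library with the higher sum. The 6 adipocyte markers summed to 19551 and 19917 in Ctrl and to 16506 and 16668 in cKO, and 2 of them fell. All 6 B cell markers and 4 of 5 T cell markers rose, with sums of 214 and 241 against 337 and 381, and of 62.8 and 68.3 against 88.3 and 117. Of 5 macrophage markers 1 rose and 2 fell, with sums of 654 to 774 over the 4 libraries, of 3 endothelial markers 1 fell (138 to 155), and epithelial markers were near 0 (sums of 0.24 to 0.45). The part of each of these in the changes of the 49 genes was not tested, and in a bulk sample fewer cells of a type and less RNA per cell cannot be told apart.

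**Figure D1:**
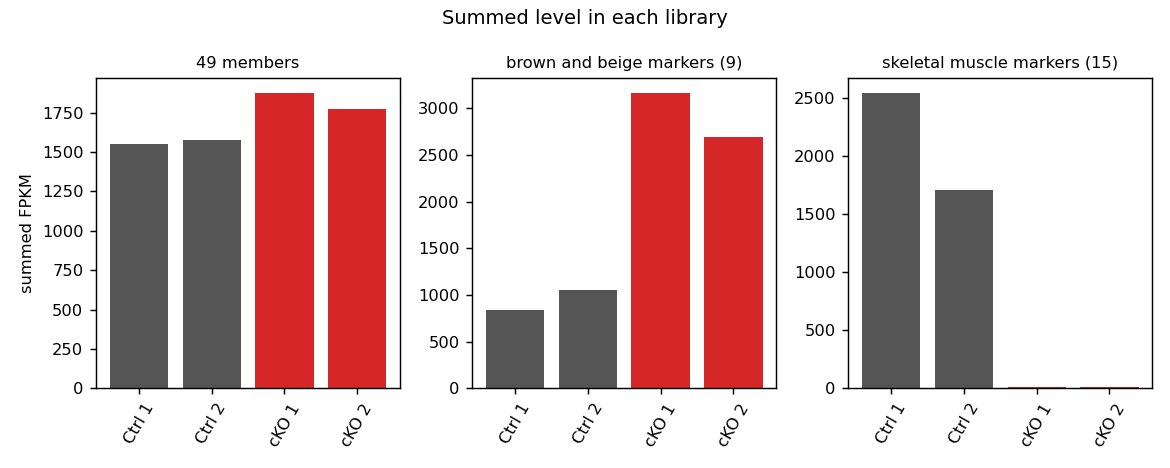
Summed FPKM (y axes, each from 0) in every library of the 49 genes, of 9 brown and beige adipocyte markers and of 15 skeletal muscle markers, grey for Ctrl and red for cKO. The first panel rises from 1548 and 1575 to 1873 and 1771, the second from 836 and 1056 to 3164 and 2690, and the third falls from 2545 and 1710 to 12.2 and 9.56.

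All 49 genes passed the filter of a mean FPKM of at least 1. Of these, 13 rose in cKO (26.5%) and 0 fell, where 12% of all 12658 genes tested rose and 13.8% fell (25.8% called in either direction). At an unadjusted limma p under 0.05, 19 of the 49 passed (38.8%), against 38.5% of all genes tested. Of the 49, 0 passed while lower in cKO, against 20.2% of all genes tested. The share called or passed in either direction was thus near that of all genes. The log2 fold changes ran from -0.15 (Coa6) to 0.64 (Coq6), with 42 above and 7 below 0, and their median was 0.14, against -0.006 for all genes tested. Both cKO libraries lay above both Ctrl libraries for 32 of the 49 genes and below for 4, and the genotypes overlapped for 13, where 31.9% of all genes tested lay above and 34.6% below. The 36 genes that were not called had log2 fold changes from -0.15 to 0.28, and their 95% confidence intervals reached from -0.31 up to 0.54, which takes in the size of many called changes.

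**Figure D2:**
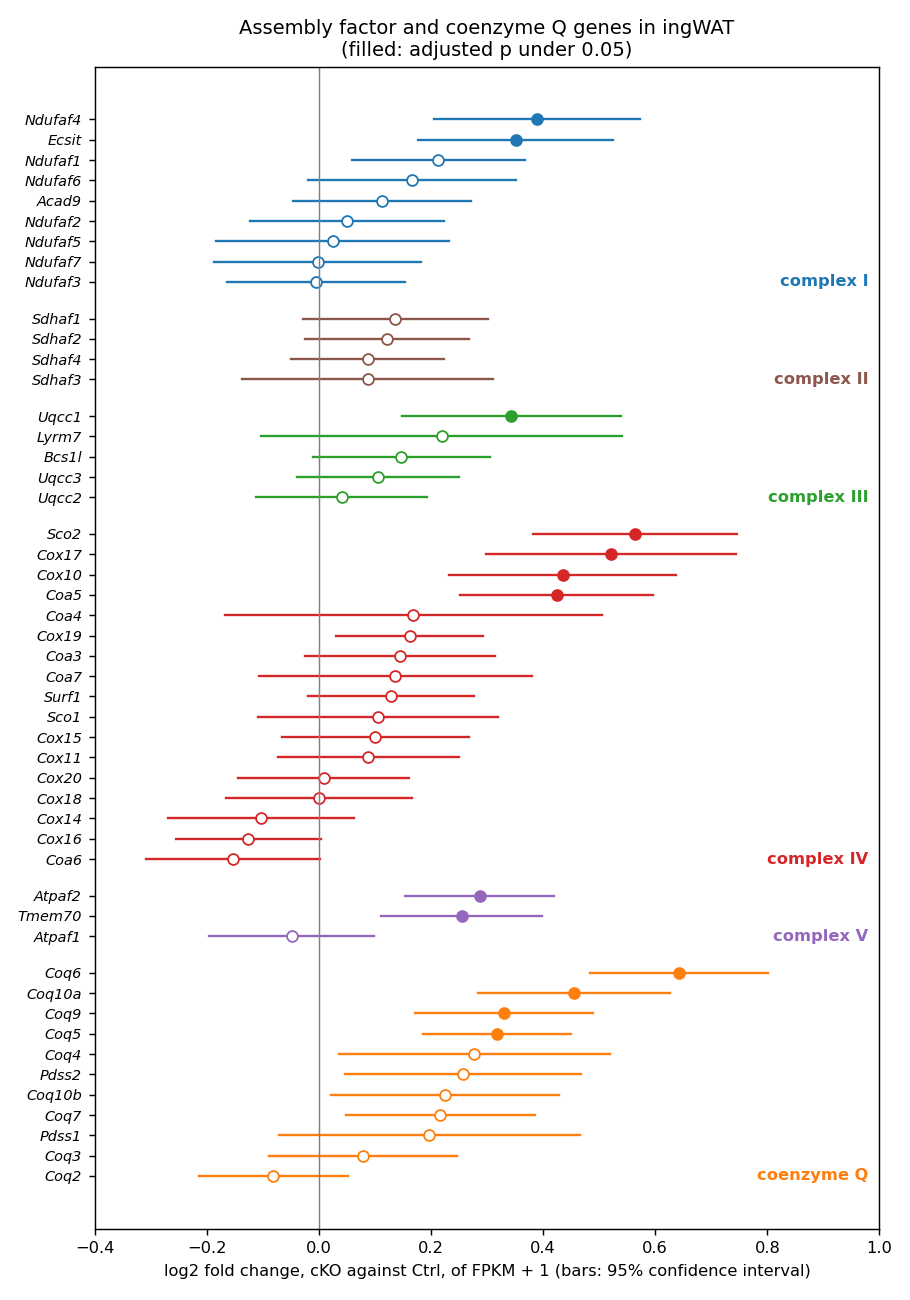
Log2 fold change (x axis, cKO against Ctrl, log2 of FPKM + 1) of each of the 49 genes, grouped by the complex they serve, with bars for the 95% confidence interval and filled points for an adjusted p under 0.05. The 13 filled points all lie to the right of 0, from 0.25 (Tmem70) to 0.64 (Coq6), and the 7 points left of 0 are open.

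Among the coenzyme Q genes, 4 of 11 rose (36.4%), and the median log2 fold change of the 11 was 0.26. Of all genes tested, 12% rose and 25.8% were called in either direction. Coq6, a hydroxylase that modifies the ring, was at 27.81 and 30.39 FPKM in Ctrl and at 47.34 and 44.53 in cKO (log2 fold change 0.64, SE 0.067, limma adjusted p = 0.00112). Coq5, the methyltransferase that adds a methyl group to a ring carbon, was at 30.25 and 31.32 FPKM in Ctrl and at 38.31 and 38.89 in cKO (0.32, SE 0.056, adjusted p = 0.0071). For both, the cKO libraries stood close together and clear of the Ctrl libraries. The remaining ring enzymes, the hydroxylase Coq7 and the methyltransferase Coq3, had log2 fold changes of 0.22 and 0.08 without a call.

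Coq9, a lipid-binding partner of Coq7, was the highest of the 11, at 121.41 and 120.36 FPKM in Ctrl and at 160.59 and 144.23 in cKO (0.33, SE 0.067, limma adjusted p = 0.0122). Coq10a, which binds coenzyme Q and is needed for its function in respiration, was at 20.66 and 21.07 FPKM in Ctrl and at 30.78 and 27.25 in cKO (0.45, SE 0.072, adjusted p = 0.00481). In both genes cKO replicate 1 was the higher of the cKO libraries. The paralog Coq10b had a log2 fold change of 0.23 and Coq4, which helps to hold the synthesis complex together, one of 0.28, with all cKO libraries above the Ctrl libraries and no call. The ratio of Coq10a to Coq10b was 1.51 and 1.3 in Ctrl and 1.78 and 1.52 in cKO.

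The enzymes that make the tail and attach it were not called. Pdss2 and Pdss1, the subunits of the enzyme that builds the tail, had log2 fold changes of 0.26 and 0.20, and Coq2, which joins tail and ring, one of -0.08. The ratio of Coq6 to Coq2 was 0.681 and 0.769 in Ctrl and 1.23 and 1.19 in cKO, so that the order of their levels was opposite in the genotypes. Coq6 and Coq2 had the highest and the lowest log2 fold change of the 11 genes, so this pair is not typical of them. Grouped in this way after the values were seen, 2 of 4 ring enzymes, 2 of the 4 genes Coq4, Coq9, Coq10a and Coq10b and 0 of 3 tail genes were called by limma, where Pdss2 had an unadjusted p under 0.05. The mevalonate pathway, which supplies the building blocks of the tail, had 1 of 8 genes called (12.5%), and the median of the 8 was -0.16. Of all genes tested, 25.8% were called. The called gene, which fell, was Mvk, mevalonate kinase, at 20.03 and 18.83 FPKM in Ctrl and 13.67 and 13.77 in cKO (-0.47, SE 0.064, adjusted p = 0.00254).

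For complex I, the NADH dehydrogenase, 2 of 9 assembly factors rose (22.2%), with a median log2 fold change of 0.11 over the 9. The share of all genes tested that rose was 12%, and the share called in either direction was 25.8%. Ndufaf4, which works early with Ndufaf3 on the arm that binds coenzyme Q, was at 9.69 and 11.01 FPKM in Ctrl and at 13.66 and 14.03 in cKO (0.39, SE 0.078, limma adjusted p = 0.0111). Ecsit, a member of the membrane-arm assembly complex that also holds Ndufaf1 and Acad9, was the highest of the 9, at 32.4 and 32.47 FPKM in Ctrl and 44.53 and 38.95 in cKO (0.35, SE 0.074, adjusted p = 0.0135). None of the named partners passed the test. Ndufaf3 had a log2 fold change of -0.01, Ndufaf1 one of 0.21 (adjusted p = 0.0527) and Acad9 one of 0.11. Ndufaf5 and Ndufaf7, which modify arginines of complex I subunits, and Ndufaf2, which acts late, had values of at most 0.05 in size, and Ndufaf6, an early factor, one of 0.17.

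Of the 4 factors of complex II, succinate dehydrogenase, 0 were called by limma and 0 had an unadjusted p under 0.05, where 38.5% of all genes tested had one. Their log2 fold changes lay between 0.09 and 0.14. Sdhaf4, which binds the subunit Sdha once it carries its flavin, was the highest, at 27.33 and 26.16 FPKM in Ctrl and at 28.39 and 28.54 in cKO (0.09, 95% confidence interval -0.05 to 0.22). Both its cKO libraries were above both Ctrl libraries, by a small step. Sdhaf2, which adds the flavin, had 0.12, and Sdhaf1 and Sdhaf3, which serve the iron-sulfur subunit, had 0.14 and 0.09.

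For complex III, the cytochrome bc1 complex, 1 of 5 genes rose (20%, against 12% of all genes tested) and the median was 0.15. In either direction, 25.8% of all genes tested were called. Uqcc1, a chaperone of newly made cytochrome b, was at 27.48 and 32.22 FPKM in Ctrl and at 39.1 and 36.97 in cKO (0.34, SE 0.083, limma adjusted p = 0.023). Its partner Uqcc2 was the highest of the 5, at 96.65 and 93.09 FPKM in Ctrl and 102.1 and 93.24 in cKO (0.04, 95% confidence interval -0.11 to 0.19). The cKO value of replicate 2 thus lay within the Ctrl values of Uqcc2. Uqcc3 had 0.11, and Bcs1l and Lyrm7, which insert and guard the Rieske iron-sulfur protein, had 0.15 and 0.22.

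Complex IV, cytochrome c oxidase, has the most factors in the list, and 4 of its 17 rose (23.5%), with a median of 0.13. Beside this, 12% of all genes tested rose and 25.8% were called in either direction. Cox17, the copper chaperone that passes copper on to Sco1, Sco2 and Cox11, was the highest of all 49 genes, at 158.07 and 177.21 FPKM in Ctrl and at 261.44 and 221.65 in cKO (0.52, SE 0.094, limma adjusted p = 0.0078). Sco2, which helps to load copper into subunit COX2, was at 4.08 and 4.15 FPKM in Ctrl and at 6.64 and 6.49 in cKO (0.56, SE 0.077, adjusted p = 0.00268). In Sco2 the libraries of each genotype lay close together, whereas those of Cox17 spread more widely. Sco2 stood for about 110 reads per library, with a counting error of 9.5%, and Cox17 for about 1630, with 2.5%. The closeness of the Sco2 libraries therefore says little about the precision of its value.

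The value of Sco2 is uncertain. In GENCODE M21, 72.4% of its exon bases are shared with Ncaph2 on the opposite strand and 74.3% with Tymp on the same strand, and the library preparation as described does not mark the strand. Ncaph2 was at 24.52 and 24.06 FPKM in Ctrl and at 25.35 and 26.67 in cKO (log2 fold change 0.09, not called), and Tymp was at 0.91 and 0.69 FPKM in Ctrl and 1.05 and 1.28 in cKO. How reads were divided among them was not tested. Of the other called genes, Ecsit shares the most exon bases with another gene (10.8%, antisense Gm16845). Cox16, which helps to mature COX2, likewise shares 84.0% of its exon bases with the Synj2bp-cox16 readthrough gene.

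Cox10, which adds a farnesyl group to heme in the making of heme A, was at 9.68 and 11.45 FPKM in Ctrl and at 14.61 and 14.56 in cKO (0.43, SE 0.086, limma adjusted p = 0.0107). Coa5, a small factor needed for cytochrome c oxidase assembly, was at 69.31 and 79.02 FPKM in Ctrl and at 100.91 and 98.47 in cKO (0.42, SE 0.073, adjusted p = 0.00642). In both, the cKO libraries lay close together and Ctrl replicate 1 was the lowest. Coa5 starts 36 bases from Unc50, which is read in the opposite direction and was at 29.57 and 28.66 FPKM in Ctrl and 26.9 and 26.95 in cKO (-0.11, not called). Of the 49 genes, 7 (14.3%) have a protein-coding neighbour that starts within 1000 bases and is read away from them, against 10% of 11766 protein-coding genes tested, and none of the 7 neighbours was called.

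The genes next to the called ones in copper and heme delivery were not called. Of 6 copper genes, grouped after the values were seen, 2 rose. Beside this, 12% of all genes tested rose and 25.8% were called in either direction. The other copper genes, Cox19, Sco1, Cox11 and Coa6, had 0.16, 0.10, 0.09 and -0.15. Cox15, the enzyme after Cox10 in heme A synthesis, had 0.10. The ratio of Cox10 to Cox15 was 0.891 and 0.968 in Ctrl and 1.18 and 1.21 in cKO, and that of Sco2 to Sco1 was 0.911 and 0.811 in Ctrl and 1.31 and 1.2 in cKO. Each pair sets a called gene against an uncalled gene, so a higher ratio in cKO followed from the choice of pair. The ratios were not tested, and the value of Sco2 is uncertain. Surf1, an early factor, had 0.13. The factors that keep newly made COX1 stable, Coa3 and Cox14, had 0.14 and -0.10, and those of COX2, Cox18, Cox20 and Cox16, had 0.00, 0.01 and -0.13. Coa4 and Coa7 had 0.17 and 0.14.

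For complex V, the ATP synthase, 2 of 3 factors rose (66.7%, against 12% of all genes tested), with a median of 0.25. Tmem70, which helps to form the ring of c subunits, was the highest of the 3, at 49.64 and 53.74 FPKM in Ctrl and at 61.82 and 61.8 in cKO (0.25, SE 0.061, limma adjusted p = 0.0219). Atpaf2, the chaperone of the alpha subunit, was at 49.77 and 49.15 FPKM in Ctrl and 62.09 and 59.05 in cKO (0.29, SE 0.056, adjusted p = 0.0105). Atpaf1, the chaperone of the beta subunit with which alpha alternates, had -0.05 (95% confidence interval -0.20 to 0.10).

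**Figure D3:**
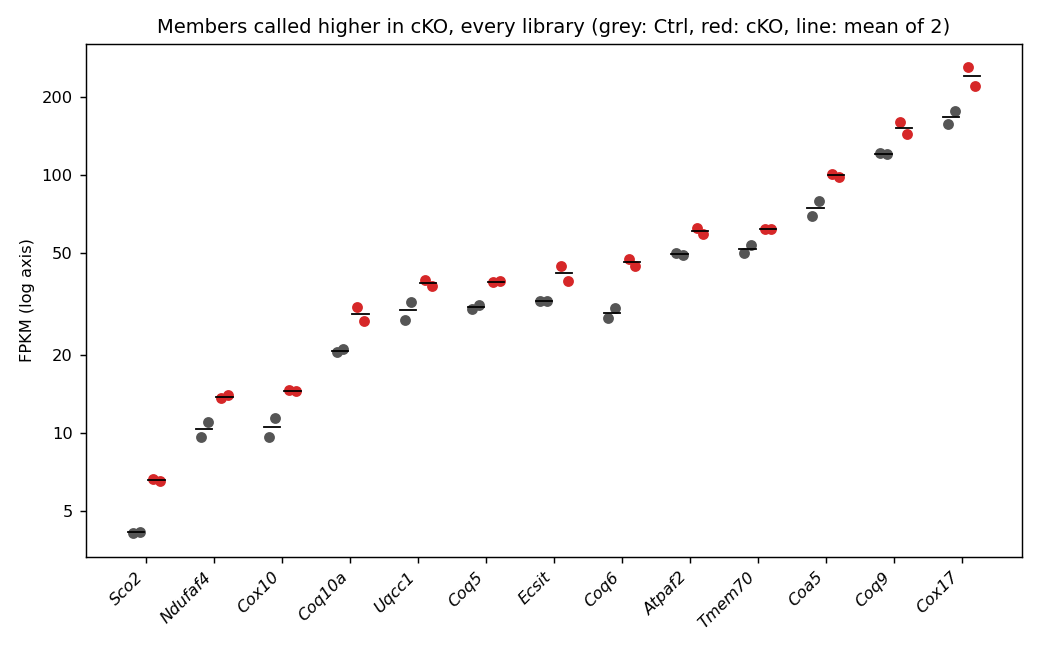
FPKM (y axis, log scale) of the 13 called genes in every library, grey for Ctrl and red for cKO, with a line at the mean of 2 libraries. The genes span from 4.08 FPKM (Sco2, Ctrl replicate 1) to 261.44 (Cox17, cKO replicate 1), and in each the red points lie above the grey points.

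The calls depended on Ctrl replicate 1. Without it, 2 of the 13 genes, Coq6 and Sco2, still passed limma's test, and the called genes among all tested went from 3269 to 877. This library also had the highest sum of skeletal muscle markers (2545 FPKM), whose part was not tested. Without cKO replicate 1, 8 of the 49 passed. The sign of the change was kept for all 13 in each of the 11 alternatives run. The median log2 fold change of the 49 ranged from 0.12 to 0.17 over these alternatives.

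The subunits of the same complexes had larger median fold changes than the factors, a difference that was not tested. Of 82 tested subunit genes, taken by symbol and encoded in the nucleus, 66 rose and 5 fell. The symbol patterns did not catch Cox4i1 and Cox4i2, so the list of complex IV is incomplete. Each gene was placed with a complex by its symbol alone, such as Ndufa4 with complex I and Atp5sl with complex V. The medians, sums and ratios by complex hold for these symbol lists. Their median was 0.37 on the log2 scale, and they ranged from -2.94 (Cox6a2, a subunit form of heart and skeletal muscle) to 1.48 (Cox7a1). By complex the medians of subunits and factors were 0.36 and 0.11 for complex I, 0.51 and 0.10 for complex II, 0.51 and 0.15 for complex III, 0.39 and 0.13 for complex IV, and 0.32 and 0.25 for complex V. Subunit genes are expressed at far higher levels, and the share of genes that rose differed with the level. Of all genes tested, 7.59% under a mean of 10 FPKM rose, 13.8% of those from 10 to 40, and 22.7% of those over 40. Of the 49 factor and coenzyme Q genes, 1 of 11, 7 of 25 and 5 of 13 rose in these ranges. Among genes over 40 FPKM, 38.5% of the 13 and 84.2% of 76 subunit genes rose, with medians of 0.16 and 0.38.

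**Figure D4:**
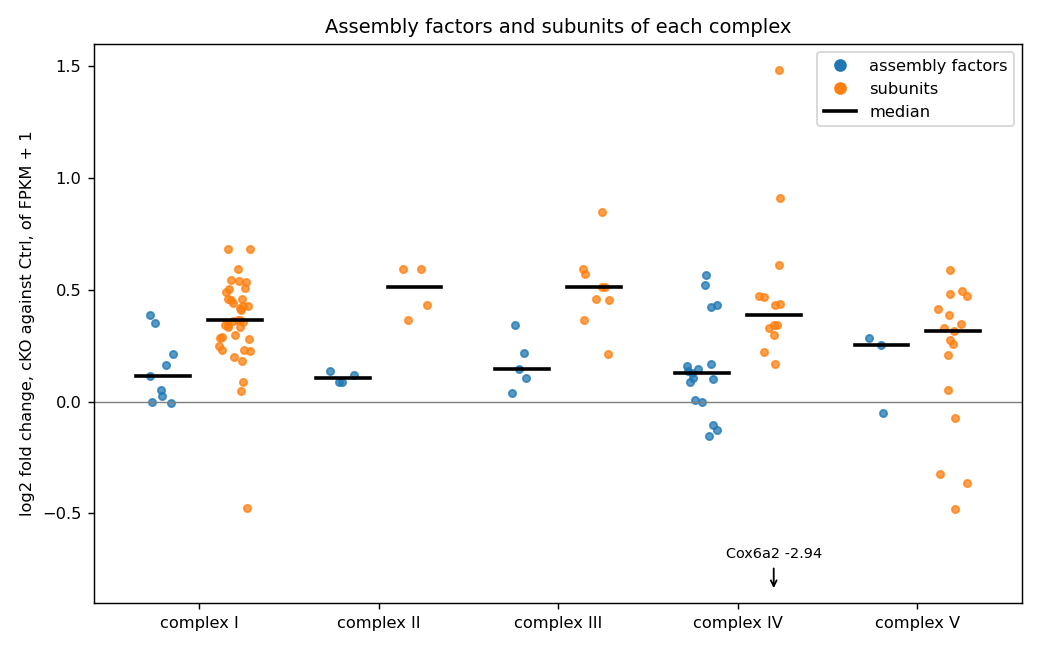
Log2 fold change (y axis, cKO against Ctrl, log2 of FPKM + 1) of each assembly factor (blue) and each subunit gene (orange) by complex, with black lines at the medians. Subunit genes were taken and placed by symbol, without Cox4i1 and Cox4i2. The subunit median lies above the factor median in each of the 5 complexes, and the arrow marks Cox6a2, at -2.94 below the axis.

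The same was seen within each library. The summed FPKM of the 49 genes was 1548 and 1575 in Ctrl and 1873 and 1771 in cKO, a rise of the mean by 16.7%, and that of the subunit genes was 33.2% higher in cKO. Such sums weigh abundant genes most. Cox17, the highest of the 49, had a mean of 168 FPKM in Ctrl and 242 in cKO. The ratio of subunit to factor FPKM, taken over all 49 genes, was 16.8 and 17.2 in Ctrl and 19.6 and 19.2 in cKO. For complex II it was 13.9 and 15 in Ctrl and 20.3 and 18 in cKO. For complex V it was 59.7 and 59.4 in Ctrl and 64.6 and 61.8 in cKO, the smallest relative step of the 5. In 5 of 5 complexes the ratio was higher in both cKO libraries than in both Ctrl libraries. With 2 libraries a group the smallest p an exact two-sided permutation test of such a ratio allows is 0.333, so these are descriptions. The summed FPKM of the coenzyme Q genes was 331 and 334 in Ctrl and 425 and 394 in cKO, 23.2% higher in cKO, the largest increase of the 6 role groups.

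**Figure D5:**
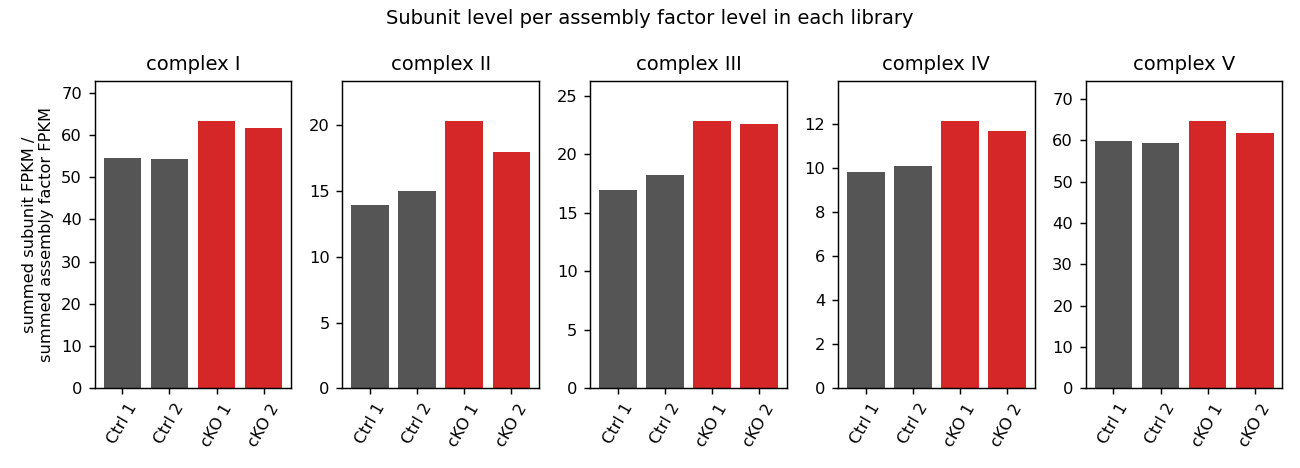
Summed subunit FPKM divided by summed assembly factor FPKM (y axes, each from 0) in every library, with a panel for each complex, grey for Ctrl and red for cKO. Subunit genes were taken and placed by symbol, without Cox4i1 and Cox4i2. Both red bars are above both grey bars in every panel, from 54.5 and 54.3 to 63.3 and 61.7 in complex I.

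Other lists of genes for mitochondrial proteins and for mitochondrial biogenesis were counted beside these, where 12% of all genes tested were called higher. Of 77 mitochondrial ribosomal protein genes 23 were called, all higher (29.9%, median 0.16), and of 22 import genes 9 were called, all higher (median 0.19). Of 28 further assembly and coenzyme Q genes that the symbols did not catch, 12 were called, all higher, and the median was 0.19. Of these, 2 (Cox7a2l and Atp5s) also stand among the subunits by their symbols. The largest of these changes was that of Adck3, an older symbol of Coq8a, an atypical kinase of coenzyme Q synthesis, at 37.07 and 48.64 FPKM in Ctrl and 102.14 and 87.39 in cKO (log2 fold change 1.14, SE 0.13, limma adjusted p = 0.0014). Its paralog Adck4 (Coq8b) had -0.06 without a call. Of 17 genes for mitochondrial DNA upkeep and biogenesis, 6 were called, all higher (median 0.20), with the largest rise for Ppara, a nuclear receptor for fatty acids, at 7.04 and 9.6 FPKM in Ctrl and 19.35 and 16.81 in cKO (1.04). Ppargc1a, the coactivator Pgc1α, was at 1.97 and 2.16 FPKM in Ctrl and 4.56 and 4.35 in cKO (0.83). Among genes for factors whose motifs were counted above, Nrf1, Gabpa and Yy1 had 0.07, 0.10 and 0.01 without a call, and Esrra, for the receptor ERRα, rose (0.30). Genes for factors that bind the CRE were not in these lists. Gabpb1 had 0.04 without a call. Of the other ERR genes, Esrrg rose at a low level, from 0.75 and 1.19 FPKM in Ctrl to 2.14 and 2.04 in cKO (0.66). Esrrb, at 0.19 to 0.41 FPKM, was under the filter.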

How the data were processed

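Polyadenylated RNA of ingWAT was read by the authors in short single-end reads on BGISEQ-500. Their processing notes name HISAT2 2.0.4, RSEM 1.2.12 and the build mm10. The deposited values are FPKM for each gene and library, with no counts and no stated scaling between libraries, so count tests were not run. Depth was inferred from the spacing of the FPKM values of 290 short RNA genes, and was chosen to bring these values close to whole reads. Of the values used, 84.1% to 89.8% then came out whole within 0.1 of a read, which is no separate check. The procedure erred by at most 0.331% on 3 simulated libraries, which were built with the same read model and so do not test it. Intervals on reads cover counting error only.

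Genes whose FPKM averaged 1 or more over the libraries were compared on log2(FPKM + 1) with limma 3.58.1 (R 4.3.3; eBayes with a trend, two-sided, Benjamini-Hochberg over 12658 genes), which was tested on simulated data. Python 3.11.15, pandas 2.3.3, numpy 2.4.6 and matplotlib 3.10.9 served the other steps. The genes, lists and tests were chosen with earlier results of these data known. In each role group, values in every library are given for up to 4 called genes, by the size of their change, which took in all 13, and for the gene with the highest mean FPKM. Of comparison lists, at most the largest rise and the largest fall were to be named, and any other gene of them was named after its values were seen. Positions are from GENCODE M21 (GRCm38) and promoters from RefSeq, matched by gene ID. Protein sequences were not used here.

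Alternatives to these choices were a smaller pseudocount (0.1), no filter or a higher one (5 FPKM), scaling by quantiles or by the median of ratios, a replicate block, eBayes with no trend, and leaving out single libraries.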

Additional observations from a re-analysis of the deposited data

How the results depend on the processing

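No gene of the 49 was called lower under any of the 11 alternatives. Of the 36 not called, 32 stayed so throughout, and Coa4, Coq7, Cox19 and Ndufaf1 were called higher under 1 or 2 alternatives each. The 49 held 5 calls with no filter on low values, where 19030 genes are tested, and 2 (without Ctrl replicate 1) to 10 when a library was left out. Of the 13 called genes, Uqcc1 and Tmem70 lost the call most often, under 5 of the 11 alternatives each. With a pseudocount of 0.1 the fold change of Sco2 (0.661) was just above that of Coq6 (0.658), which was the larger as reported. In fits without a library the lone sample of a group is assumed to vary like the others. With no filter, 1762 of all genes were called, 667 higher and 1095 lower, and calls fell to 41 for subunits, 10 for mitochondrial ribosomal proteins, 2 for import and 3 for the further assembly genes. Leaving out a library gave 877 to 2429 called genes, 358 to 1071 higher and 519 to 1434 lower, with 14 to 64 subunits, 3 to 18 ribosomal, 0 to 4 import, 1 to 7 further assembly and 3 to 5 biogenesis genes. The lowest counts were without Ctrl replicate 1. Without a trend in eBayes 5 import genes were called, and after quantile normalization 1 mevalonate gene was called higher. The cause of these shifts was not tested, beyond the fewer samples or more genes that the alternatives hold.

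Signs turned for some genes that were not called, among them Coa4 (0.17 as reported), which was called higher without cKO replicate 1. Under median-of-ratios scaling Ndufaf3 was at 0.0039 and Ndufaf7 at 0.0071, and under quantile normalization Ndufaf7 was at 0.0036. With a library left out, the values ranged from -0.024 to 0.11 for Uqcc2, from -0.061 to 0.078 for Cox20, from -0.035 to 0.14 for Ndufaf2, from -0.052 to 0.041 for Ndufaf3, from -0.094 to 0.089 for Ndufaf7, from -0.046 to 0.22 for Sdhaf3, from -0.055 to 0.055 for Cox18, from -0.054 to 0.10 for Ndufaf5, from -0.057 to 0.39 for Coa4, and from -0.050 to 0.019 for Tomm20, an import receptor.

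Ctrl and cKO share replicate numbers, but the deviations of same-numbered libraries correlated at 0.0148 over 12658 genes and no label says that a number marks a shared litter or day. The replicate block left 13 of the 49 genes called and moved the called genes from 3269 to 3383. Depth limits the lowest genes, such as Sco2 at about 110 reads per library.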
